A study of Rattus norvegicus with 60 samples.

Results

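The genes described here are 7 transport and secretory genes of the thick ascending limb: Slc12a1, Umod, Kcnj1, Egf, Cldn16, Cldn19 and Casr. They were chosen by name, and all 7 have 1 row each among the 32545 genes of the deposited count table. Each passed the filter on low counts in both tissues. Both kidney regions, cortex and outer medulla, were sequenced in SS rats (the wild-type Dahl salt-sensitive strain, which becomes hypertensive on salt) and in NOX4 rats, a knockout made on that strain. Diets were control (LS) and 4.0% NaCl, eaten for 7 days in HS7 groups and for 21 days in HS21 groups, so the NOX4 groups carry the same salt-sensitive background as the SS groups. With 5 libraries for each of 12 groups, there were 60 libraries. The labels do not give age, sex, the salt content of the control diet, or how long the LS groups ate it. Differences between salt-fed and LS groups therefore cannot be told apart from differences in time. Nor do the labels say whether the libraries of a group came from separate rats, so p-values measure the spread between these libraries.

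The thick ascending limb is the stretch of the nephron that runs from the medulla back up to the cortex and reabsorbs salt without water. Slc12a1 encodes the apical Na-K-2Cl cotransporter (the target of loop diuretics), and Kcnj1 encodes the potassium channel ROMK, which returns potassium to the lumen so that the cotransporter can keep running. The resulting lumen-positive voltage drives calcium and magnesium between the cells through a pore formed by the claudins Cldn16 and Cldn19, and Casr, the basolateral calcium-sensing receptor, restrains this transport. Umod encodes uromodulin, the most abundant protein of normal urine, and Egf encodes the precursor of epidermal growth factor, made by the limb and by the distal convoluted tubule. Salt handling in this segment has long been studied in the Dahl strain. Each measurement is of bulk tissue, in which fewer cells of a type and less RNA per cell cannot be told apart.

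RefSeq promoter windows in the GRCr8 build, from 250 bases before to 50 bases after an annotated start, were matched for all 7 genes, with 9 windows in all because Slc12a1 and Kcnj1 have more than 1 start. Shown are Slc12a1 and Cldn16, which were both lower in salt-fed SS cortex, Umod, whose level ran with theirs across cortex libraries, and Kcnj1, which did not run with Slc12a1 there. Capitals mark TATAAA.

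Slc12a1, chr3:132859409-132859708, plus strand: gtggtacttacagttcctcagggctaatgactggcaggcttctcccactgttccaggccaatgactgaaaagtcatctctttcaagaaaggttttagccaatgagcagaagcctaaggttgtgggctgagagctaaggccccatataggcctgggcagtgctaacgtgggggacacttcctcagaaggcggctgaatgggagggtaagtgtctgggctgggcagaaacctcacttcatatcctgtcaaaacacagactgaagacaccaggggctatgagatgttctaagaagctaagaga
Cldn16, chr11:87814347-87814646, minus strand: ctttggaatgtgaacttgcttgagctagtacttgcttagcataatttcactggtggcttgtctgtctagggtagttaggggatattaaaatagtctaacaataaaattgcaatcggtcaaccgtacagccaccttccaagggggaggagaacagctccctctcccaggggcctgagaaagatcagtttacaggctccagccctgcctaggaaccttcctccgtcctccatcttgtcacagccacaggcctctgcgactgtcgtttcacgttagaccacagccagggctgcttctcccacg
Umod, chr1:183260967-183261266, minus strand: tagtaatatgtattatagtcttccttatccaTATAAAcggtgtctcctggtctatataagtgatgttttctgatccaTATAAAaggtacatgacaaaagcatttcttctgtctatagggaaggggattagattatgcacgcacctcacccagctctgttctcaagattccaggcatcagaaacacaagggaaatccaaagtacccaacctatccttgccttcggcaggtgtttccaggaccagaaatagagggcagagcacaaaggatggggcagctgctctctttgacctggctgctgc
Kcnj1, chr8:39037742-39038041, plus strand: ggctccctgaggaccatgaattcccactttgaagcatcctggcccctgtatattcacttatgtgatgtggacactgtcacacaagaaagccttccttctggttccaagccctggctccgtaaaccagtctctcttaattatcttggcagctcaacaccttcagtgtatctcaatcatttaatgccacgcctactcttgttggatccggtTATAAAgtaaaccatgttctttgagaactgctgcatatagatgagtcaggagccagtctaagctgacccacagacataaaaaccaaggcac

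Each window was searched on both strands. TATAAA was found at 2 places in the Umod window, starting 219 and 173 bases before the annotated start, and at 1 place in the Kcnj1 window shown, 41 bases before it. Of 33469 RefSeq promoter windows of the same length, 14.2% hold TATAAA. A half-site of the kidney transcription factor HNF1, GTTAAT, occurs in 7.45% of all windows and in none of the 9 windows of these genes. The longer GTTAATNAT, which contains it, occurs in 0.747% of all windows and also in none of the 9. AAGGTCA, a nuclear receptor half-site, occurs in 4.61% and again in none of the 9. These are matches of letters within short windows and describe no binding.

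Sequencing depth lay between 11.5 and 29.6 M counts a library. At a common depth of 10 M counts, between 16916 and 18377 genes were detected in 49 libraries. In the other 11 the range was 14102 to 16117, and all 11, called low-complexity libraries here, come from SS rats at LS or HS7 (cortex 5, outer medulla 6). Nox4, the targeted gene, was at 251 to 530 CPM (the depth-scaled count, here scaled within a tissue) in the SS cortex libraries and at 54.7 to 77.7 CPM in the NOX4 cortex libraries. In outer medulla its LS means were 9.75 CPM in SS and 5.04 CPM in NOX4, with libraries that overlap. By the edgeR test described below, the log2 strain difference of Nox4 there was -0.94 at LS (adjusted p = 0.29), -2.62 at HS7 (0.010) and -1.47 at HS21 (0.21). SS HS7 outer medulla replicate 3 stood apart, with 9427 CPM summed over 6 markers of the first proximal tubule segments against a group median of 1433 CPM, and with 111 CPM of Nox4. NOX4 HS7 replicates 3 and 4 stood apart in both tissues, as described below for each gene.

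Between the tissues, 6 of the 7 genes were higher in outer medulla, and Egf was not called. Slc12a1 differed most, by 3.02 ± 0.09 on the log2 scale (SE; edgeR quasi-likelihood test over all 60 libraries, adjusted p = 1.4e-33), followed by the claudin Cldn19 (2.69 ± 0.09). Kcnj1 was higher by 1.80 ± 0.09, Cldn16 by 1.71 ± 0.08, Umod by 1.63 ± 0.11 and Casr by 0.50 ± 0.12 (adjusted p = 0.00032). For Egf the difference was 0.03 ± 0.09 (adjusted p = 0.79). A call means an adjusted p under 0.05 over all genes tested, and 71.6% of all 16326 genes were called between the tissues, so the number of members called is not in itself particular to these genes. The median log2 difference was 1.71 over the members and 0.03 over all genes.

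Levels of different genes can be compared on the deposited FPKM, which is scaled by gene length. In outer medulla the order by mean over 30 libraries was Umod at 3714 ± 1098 FPKM (SD), Slc12a1 at 770 ± 203, Kcnj1 at 319 ± 103, Cldn19 at 98.3 ± 24.2, Egf at 51.3 ± 17.8, Cldn16 at 42.6 ± 9.64 and Casr at 20.1 ± 7.32. In cortex Umod was again first at 1169 ± 286 FPKM, ahead of Slc12a1 at 94.4 ± 32.1, Kcnj1 at 89.3 ± 15.5 and Egf at 48.0 ± 11.2. Cldn19 (14.9 ± 3.36), Casr (13.8 ± 2.16) and Cldn16 (13.0 ± 3.98) came last in cortex. Some neighbours in these orders differ by less than their spread: Slc12a1 and Kcnj1 in cortex, the 3 last genes in cortex, and Egf and Cldn16 in outer medulla lie within 1 SD of each other. The partner claudins thus stand at a like FPKM in cortex and apart in outer medulla, where Cldn19 has the higher mean. The 7 genes made up 0.184% to 0.549% of all counts in cortex libraries and 0.597% to 2.16% in outer medulla libraries.

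**Figure D1:**
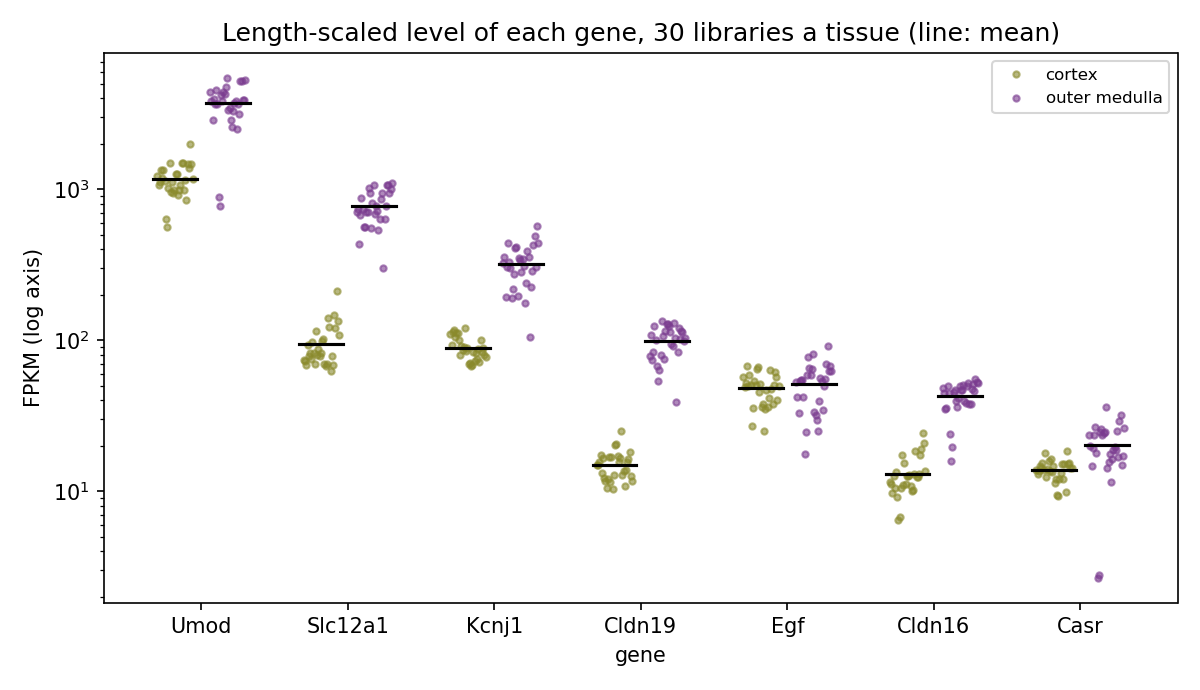
FPKM (log axis) of each gene in every library, cortex and outer medulla side by side, with a line at the mean of 30 libraries. Umod is highest in both tissues, at means of 1169 and 3714 FPKM, and Egf lies at a like level in both; the 2 lowest outer medulla points of Umod and of Casr are NOX4 HS7 replicates 3 and 4.

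In SS cortex the transcripts of the cotransporter, 1 of the 2 claudins, the calcium-sensing receptor and Egf were lower at HS21 than at LS. Slc12a1 fell to 56.2% of its LS mean, Cldn16 to 58.8% and Casr to 69.6%, and in each of these 3 genes every HS21 library was below every LS library. Slc12a1 lies on chromosome 3, 117421604 to 117498367, plus strand, in the deposited annotation, whose build is not given in the sources used here. The 5 SS LS libraries had 649, 529, 925, 586 and 474 CPM of Slc12a1 (replicates 1 to 5), and the 5 HS21 libraries had 430, 449, 306, 293 and 302 CPM. Replicate 3 at LS is the highest of the 30 cortex libraries. The log2 fold change was -0.83 ± 0.19 (SE; edgeR quasi-likelihood test, adjusted p = 0.0040). Cldn16 (chromosome 11, 77681794 to 77703255, minus strand) had 57.7, 63.4, 81.0, 70.0 and 45.1 CPM at LS and 41.5, 42.4, 36.0, 32.9 and 33.8 CPM at HS21. Its log2 fold change was -0.77 ± 0.17 (adjusted p = 0.0028 by the same edgeR test).

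Casr (chromosome 11, 67188630 to 67258771, plus strand) had 83.8, 67.4, 69.5, 64.5 and 64.2 CPM in SS cortex at LS and 51.1, 54.2, 42.6, 41.6 and 53.6 CPM at HS21. The receptor's libraries did not overlap between the diets, and its log2 fold change of -0.52 ± 0.11 had the smallest SE of the 4 called genes and the smallest adjusted p (0.0018, edgeR). Egf had 194, 235, 221, 156 and 190 CPM at LS and 137, 144, 96.5, 133 and 179 CPM at HS21, so its groups overlap. Its log2 fold change was -0.53 ± 0.18 (edgeR, adjusted p = 0.041), and the call was lost (adjusted p up to 0.13) without any 1 of 7 libraries, SS LS replicates 1 to 3 and SS HS21 replicates 1 to 4. The other 3 calls were kept whichever library was left out. Kcnj1 (-0.26 ± 0.10, adjusted p = 0.063) and Umod (-0.46 ± 0.19, adjusted p = 0.097) did not pass the edgeR test. Umod was called without NOX4 HS7 replicates 3 and 4 (-0.45, adjusted p = 0.041), and limma with quality weights called Kcnj1 (-0.31, adjusted p = 0.024). The authors' deposited table lists both of these with the 4, at adjusted p-values of 0.0060 for Umod and 0.023 for Kcnj1. Cldn19, the other claudin of the pore, stood above 0, at 0.27 ± 0.17 (adjusted p = 0.30). It was called higher with a score of the markers of the first proximal tubule segments as a covariate, at 0.38 (edgeR, adjusted p = 0.044).

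In all, 4 of 7 members were called in SS cortex at HS21, all 4 lower, where 16.5% of all 15179 genes were called. The members' median log2 fold change was -0.52, against 0.01 over all genes. The low-complexity libraries bear on this comparison, because 3 of the 5 SS LS cortex libraries are among them. Without those libraries 1 of 7 members, Casr, was called, at -0.61 (adjusted p = 0.016), while Slc12a1 stood at -0.66 (0.067), Cldn16 at -0.46 (0.18) and Egf at -0.48 (0.21), each by edgeR with 2 LS libraries left. Markers of the third proximal tubule segment moved with the result: their sum over 6 genes was 2204 to 3932 CPM in SS LS cortex and 865 to 1936 CPM at HS21, with none of the 6 at 0. With the score of those markers as a covariate all 4 were still called, with Slc12a1 at -0.47 (adjusted p = 0.025) and Cldn16 at -0.71 (0.017). The sums do not overlap between the diets, so this covariate can hardly be told apart from diet. The kept calls therefore do not separate the 4 genes from these markers.

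At 7 days on salt, none of the 7 genes was called in SS cortex, where 2.25% of all genes were. By edgeR 3 members had an unadjusted p under 0.05, and by DESeq2 1 was called and by limma none. Slc12a1 had 614, 538, 274, 341 and 299 CPM at HS7, which spans the LS and the HS21 levels. Its log2 fold change was -0.61 ± 0.19 (adjusted p = 0.071), and that of Cldn16 was -0.46 ± 0.17 (adjusted p = 0.12). DESeq2 called Slc12a1 here, at -0.62 (adjusted p = 0.029). Both HS7 and HS21 are compared with the same LS libraries.

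In SS outer medulla, Egf (chromosome 2, 68820615 to 68895920, plus strand, in the deposited annotation) fell to 44.6% of its LS mean by 21 days. Its RefSeq promoter window lies far from there, at 220976248 to 220976547 of chromosome 2 on the minus strand. The windows of the other members lie on their deposited strand, and this conflict for Egf was not resolved. The 5 LS libraries had 338, 438, 304, 334 and 300 CPM of Egf and the 5 HS21 libraries had 160, 155, 144, 116 and 190 CPM, with no overlap. The log2 fold change was -1.17 ± 0.23 (edgeR, adjusted p = 0.0025), and it was -1.13 (0.027) without the low-complexity libraries, which include 3 of the 5 LS libraries. At 7 days the 5 libraries had 271, 262, 162, 235 and 260 CPM, all below the LS libraries. All but replicate 3, the library with high proximal tubule markers, were also above the HS21 libraries, with a log2 fold change of -0.53 ± 0.23 that was not called (adjusted p = 0.18).

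Slc12a1 in SS outer medulla had 5920, 5825, 5168, 5676 and 6019 CPM at LS and 3737, 4283, 3976, 2860 and 3476 CPM at HS21. Every HS21 library was below every LS library, and the mean was 64.1% of that at LS. The edgeR test over all 6 outer medulla groups gave -0.64 ± 0.22 (adjusted p = 0.059), which is not a call. Umod also had no overlap, with 13338, 13112, 9863, 10110 and 13104 CPM at LS and 8407, 8782, 7294, 6301 and 8207 CPM at HS21 (-0.61 ± 0.32, adjusted p = 0.23). Kcnj1 gave -0.74 ± 0.27 (adjusted p = 0.082) and Casr -0.68 ± 0.40 (0.29), whereas Cldn16 (-0.24 ± 0.21) and Cldn19 (0.03 ± 0.22) stood nearer to 0.

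At HS21, 1 of 7 members was called in SS outer medulla, where 9.86% of all 15799 genes were called, and the members' median log2 fold change was -0.64 against 0.02 over all genes. This count changed with the test. DESeq2 called 3 members, limma with quality weights 5, an edgeR fit of the 2 compared groups alone 4, and the authors' deposited table lists 5 with an adjusted p under 0.05. Over all genes limma called 3666 in this comparison, against 1557 by edgeR. Left without NOX4 HS7 replicates 3 and 4, which enter the shared estimate of spread, edgeR called 3: Egf (-1.16, adjusted p = 9.3e-05), Umod and Casr. No member was called at HS7, where 2.37% of genes were; 3 had an unadjusted p under 0.05 by edgeR, and DESeq2 and limma also called none. Without NOX4 HS7 replicates 3 and 4 edgeR called Umod at HS7 (-0.50, adjusted p = 0.046). Fibroblast markers moved with salt here: their sum over 5 genes was 1413 to 2238 CPM in SS LS outer medulla and 1959 to 4699 CPM at HS21. Their part in the result was not tested.

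**Figure D2:**
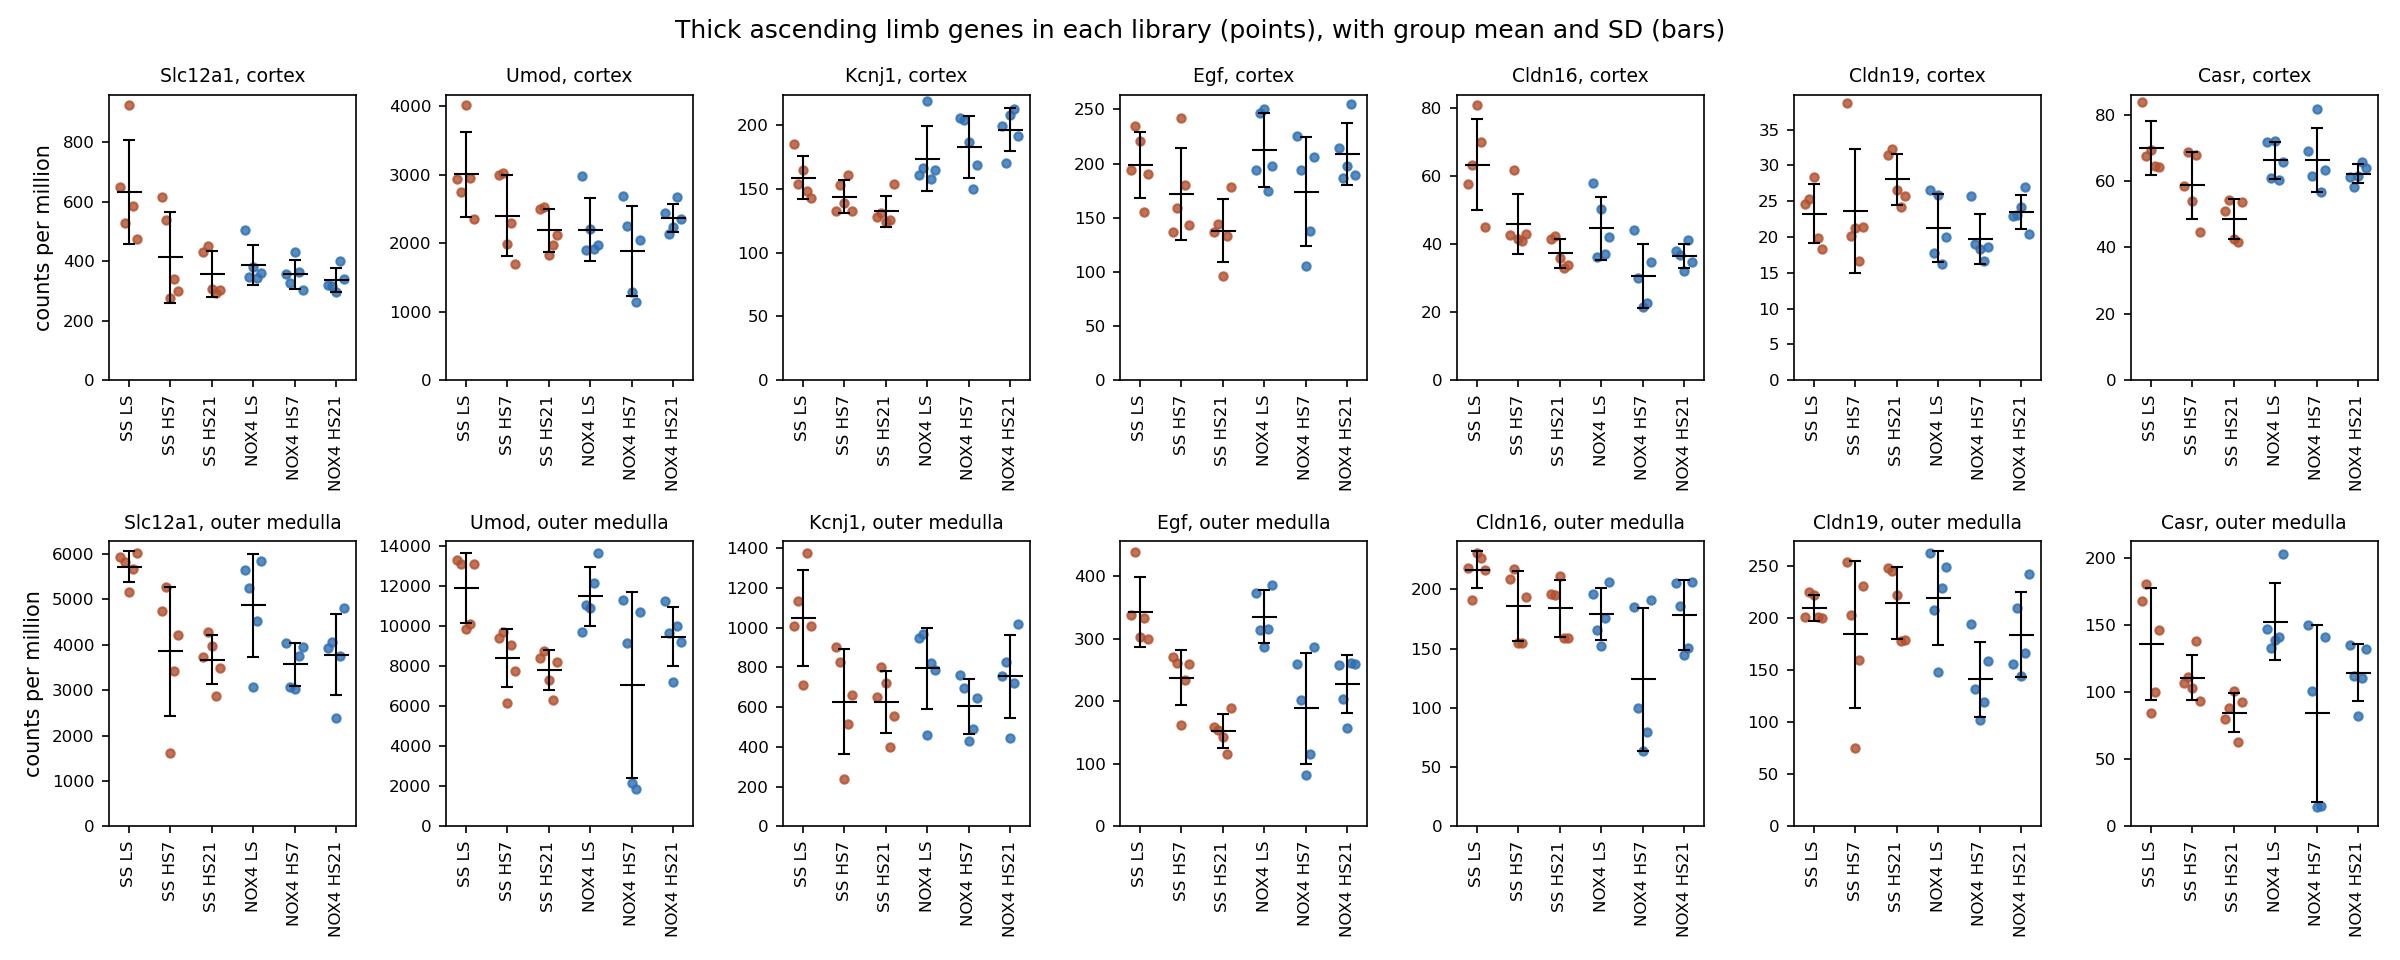
CPM of each gene in every library, cortex above and outer medulla below, SS in brown and NOX4 in blue, with group mean and SD (n = 5). Slc12a1, Cldn16 and Casr in SS cortex and Egf, Umod and Slc12a1 in SS outer medulla have no HS21 library as high as the lowest LS library, and in NOX4 HS7 outer medulla Umod and Casr split into 3 high and 2 low libraries.

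In NOX4 rats no member was called on salt, in either tissue or at either time. The share of all genes called was also 0% in each of these 4 comparisons, so the edgeR test set no gene apart here. In cortex Slc12a1 had 504, 346, 382, 343 and 360 CPM at LS, 356, 326, 430, 363 and 303 CPM at HS7, and 321, 318, 297, 402 and 340 CPM at HS21. These values overlap throughout, and all but the first lie within the range of SS HS21. The log2 fold change at HS21 was -0.21 ± 0.19. Casr in NOX4 cortex had 71.7, 60.8, 72.2, 60.4 and 65.9 CPM at LS and 61.3, 58.4, 61.4, 65.8 and 64.0 CPM at HS21 (-0.09 ± 0.11). Cldn16 at HS7 had the lowest adjusted p in NOX4 cortex, at -0.54 ± 0.17 (0.55), and stood at -0.30 without NOX4 HS7 replicates 3 and 4. By edgeR the number of members with an unadjusted p under 0.05 in NOX4 cortex was 1 at HS7 and 0 at HS21; DESeq2 and limma called none.

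In NOX4 outer medulla all 7 log2 fold changes were below 0 at both times, with medians of -0.63 at HS7 and -0.28 at HS21, against 0.01 and -0.00065 over all genes. Egf was the member whose libraries did not overlap between diets. It had 374, 314, 287, 316 and 385 CPM at LS, 260, 202, 82.1, 115 and 286 CPM at HS7, and 258, 203, 157, 261 and 261 CPM at HS21. Its log2 fold changes were -0.82 ± 0.23 (edgeR, adjusted p = 0.17) at HS7 and -0.56 ± 0.23 (adjusted p = 1.0) at HS21, neither called. At HS7 6 members had an unadjusted p under 0.05 and at HS21 1 did, with no call by DESeq2 or limma at either time. The HS7 values rested largely on replicates 3 and 4, which stood apart. Without that pair all 7 fold changes were still below 0, but their median was -0.22, Egf was at -0.43 and 1 member, Egf, had an unadjusted p under 0.05. Umod went from -0.71 to -0.14 and Casr from -0.85 to -0.22. Leaving out NOX4 HS7 replicate 5 alone instead gave a call for Egf (-1.02, edgeR, adjusted p = 0.049).

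Whether the difference between salt and LS was unlike in the strains was tested as an interaction, the salt difference in NOX4 minus that in SS. No member was called at HS21 in cortex, where 1.08% of genes were. The cortex values at HS21 were 0.62 ± 0.27 for Slc12a1 (edgeR, adjusted p = 0.24), 0.44 ± 0.14 for Kcnj1 (0.11), 0.43 ± 0.15 for Casr (0.15) and 0.50 ± 0.25 for Egf (0.33). Of the 7, 4 had an unadjusted p under 0.05, DESeq2 called none, and limma with quality weights called 2, Kcnj1 and Casr. Over all genes limma called 993 in this comparison, against 164 by edgeR. At HS7 in cortex 0.0132% of genes and no member were called, with no unadjusted p under 0.05 among the members and no call by DESeq2 or limma. In outer medulla the shares were 0% at HS7 and 0.0253% at HS21, and no member had an unadjusted p under 0.05 or a call by edgeR, DESeq2 or limma. The call of a salt change in SS cortex and the lack of one in NOX4 cortex therefore do not show a difference between the strains for these genes.

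**Figure D3:**
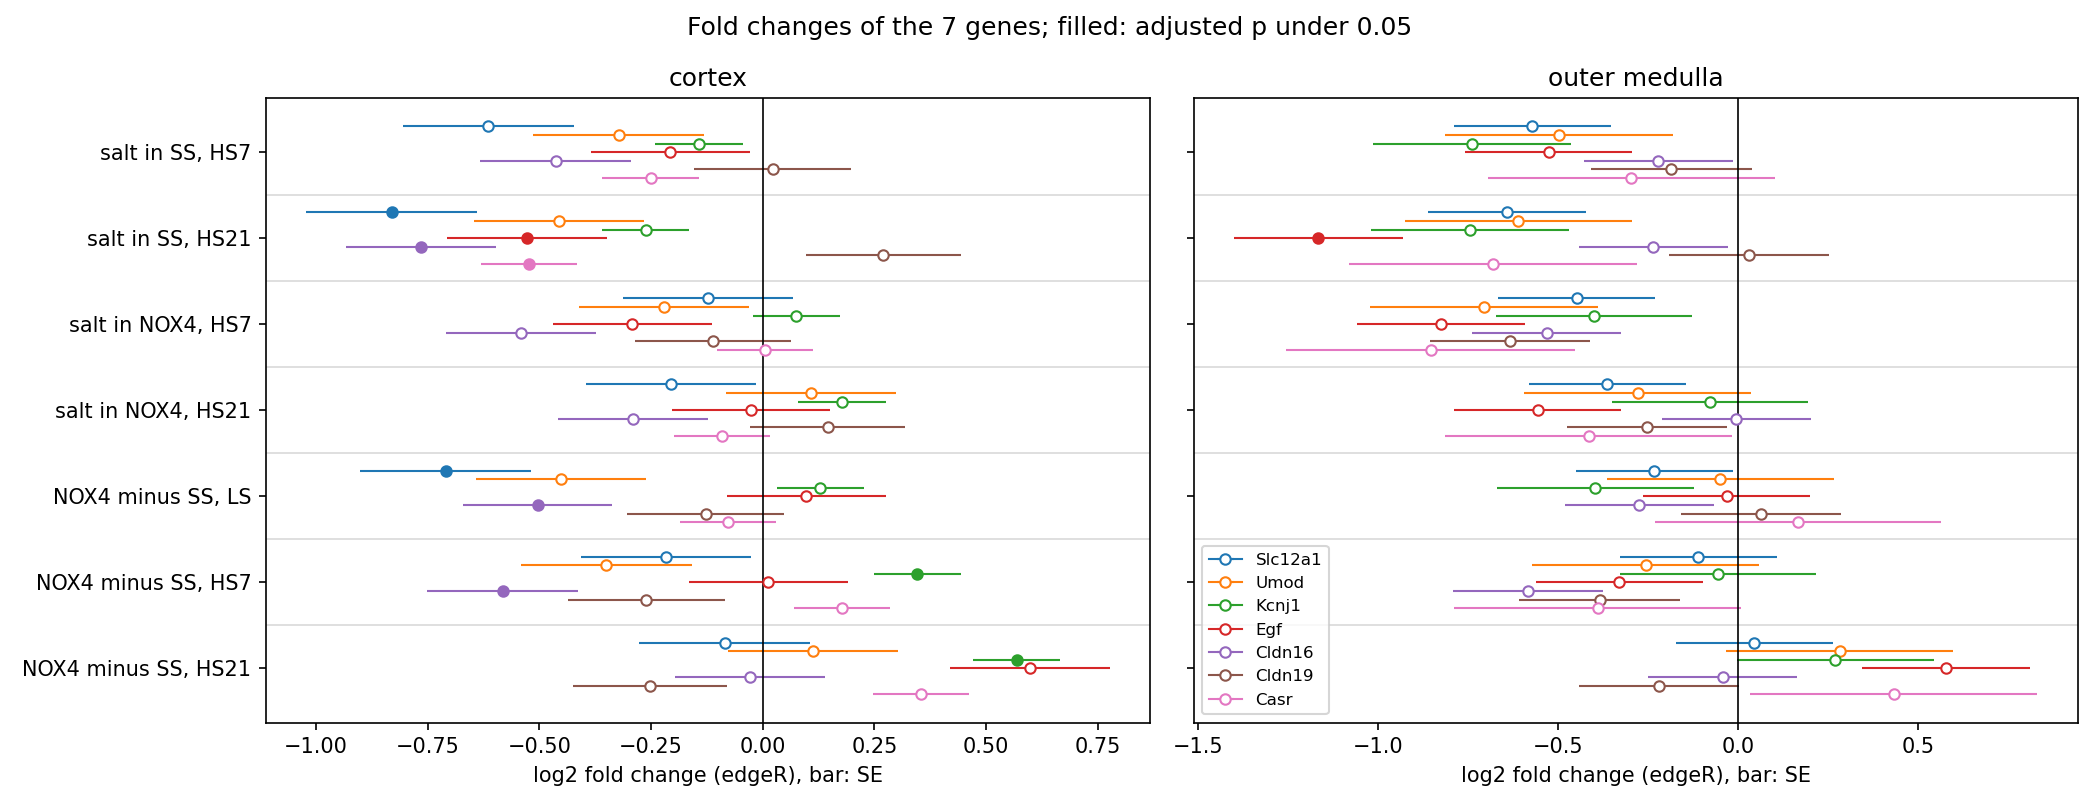
Log2 fold change (edgeR, bar: SE) of each gene for salt within a strain and for NOX4 minus SS at each diet, cortex left and outer medulla right; filled points passed an adjusted p under 0.05. The filled points are Slc12a1, Cldn16, Casr and Egf for HS21 in SS cortex, Egf for HS21 in SS outer medulla, and Slc12a1, Cldn16 and Kcnj1 between strains in cortex.

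Between strains in cortex, Kcnj1 was higher in NOX4 rats on salt, and Slc12a1 and Cldn16 were lower in NOX4 rats on the control diet. Kcnj1 (chromosome 8, 33514042 to 33518165, plus strand, in the deposited annotation) had 128, 131, 124, 126 and 154 CPM in SS cortex at HS21 and 199, 170, 208, 213 and 192 CPM in NOX4 cortex. Every NOX4 library was above every SS library, and the NOX4 mean was 148% of the SS mean. The log2 difference was 0.57 ± 0.10 (edgeR, adjusted p = 0.0066), and Kcnj1 was the 1 member called of 7, with 1.00% of all genes called. It kept its call under each of the alternatives run on this comparison and without any 1 library, at 0.50 to 0.63, among them the fit without the low-complexity libraries (0.56, adjusted p = 0.0042). Egf (0.60 ± 0.18, adjusted p = 0.10) and Casr (0.36 ± 0.11, adjusted p = 0.11) also had every NOX4 library above every SS library at HS21 but were not called by edgeR, while the authors' deposited table lists both, at adjusted p-values of 0.00039 and 0.0012. Egf was also called by edgeR without NOX4 HS7 replicates 3 and 4 (0.60, adjusted p = 0.040).

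At HS7 Kcnj1 had 133, 153, 139, 161 and 133 CPM in SS cortex and 206, 204, 186, 150 and 169 CPM in NOX4 cortex, which overlap in 1 NOX4 library. The log2 difference was 0.35 ± 0.10 (edgeR, adjusted p = 0.016). Cldn16 was lower in NOX4 at HS7, by a log2 difference of -0.58 ± 0.17 (adjusted p = 0.018), with 42.8, 61.7, 41.5, 41.1 and 43.1 CPM in SS and 44.2, 30.1, 21.6, 22.7 and 34.9 CPM in NOX4. The 2 lowest values are replicates 3 and 4, and without them the difference was -0.34 (adjusted p = 0.23). With these, 2 of 7 members were called at HS7, and 17.4% of all genes were. Cldn16 was also not called without SS HS7 replicate 2, NOX4 HS7 replicate 3 or NOX4 HS7 replicate 4 alone, at an adjusted p of up to 0.082. A fit of the compared groups alone called neither, with Kcnj1 at 0.34 (adjusted p = 0.095).

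On the control diet Slc12a1 had 504, 346, 382, 343 and 360 CPM in NOX4 cortex, 61.1% of the SS mean. Only the first of these is above the lowest SS library, at 474 CPM. The log2 difference was -0.71 ± 0.19 (edgeR, adjusted p = 0.0083). Cldn16 was at 58.0, 36.2, 50.3, 37.0 and 42.2 CPM in NOX4, a log2 difference of -0.50 ± 0.17 (adjusted p = 0.029). With these 2 of 7 members called, the share of all genes called was 22.0%. Umod stood at -0.45 (adjusted p = 0.089) and was called without NOX4 HS7 replicates 3 and 4 (adjusted p = 0.035). The Cldn16 call was lost (adjusted p up to 0.098) without any 1 of 5 libraries, SS LS replicates 3 and 4 and NOX4 LS replicates 2, 4 and 5. Neither call was kept without the low-complexity libraries, where Slc12a1 stood at -0.54 (adjusted p = 0.10) and Cldn16 at -0.21 (0.56). The segment 3 marker sum of 2204 to 3932 CPM in SS LS cortex compares with 718 to 1285 CPM in NOX4 LS cortex, and with that score as a covariate Slc12a1 stood at -0.03 (adjusted p = 0.94) and Cldn16 at -0.41 (0.36). The sums do not overlap between the strains, so this covariate can hardly be told apart from strain. Over all genes it cut the number called from 3342 to 157, so the lost calls are not particular to these 2 genes. The LS libraries of SS cortex are the same in this comparison and in that of salt in SS, so the lower values of Slc12a1 and Cldn16 in both are measured against shared libraries.

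Averaged over the 3 diets, Kcnj1 was 0.35 ± 0.06 higher on the log2 scale in NOX4 cortex (edgeR, adjusted p = 3.6e-05), while Slc12a1 (-0.34 ± 0.11, adjusted p = 0.019) and Cldn16 (-0.37 ± 0.10, 0.0041) were lower. These are 3 of 7 members, where 31.7% of all genes were called. With the segment 3 score as a covariate Slc12a1 turned to 0.10 (adjusted p = 0.55) and Cldn16 stood at -0.31 (0.14), while Kcnj1 remained called at 0.28 (0.016). Over all genes that covariate cut the number called from 4812 to 1446. With the score of the first segments Slc12a1 stood at -0.02 (0.95) and Cldn16 at -0.11 (0.54). Without the low-complexity libraries Slc12a1 was not called (-0.23, adjusted p = 0.12) and the other 2 were. Egf, at 0.24 (adjusted p = 0.078) over all libraries, was called without NOX4 HS7 replicates 3 and 4 (0.33, adjusted p = 0.0076). In the main fit the cotransporter and potassium channel genes thus had averaged log2 differences of opposite sign between the strains in cortex. That of Kcnj1 held under each of the alternatives run, and that of Slc12a1 did not. The marker scores among these alternatives were those of the proximal tubule alone. The part of other cell types in the Kcnj1 difference was not tested. Bulk cortex does not tell whether both differences arose in the same cells.

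No member was called between strains in outer medulla at any diet, where 14.8% of genes were called at LS, 9.61% at HS7 and 1.63% at HS21, or averaged over diets, where 30.4% were. Cldn16 averaged over diets came nearest, at -0.30 ± 0.12 (edgeR, adjusted p = 0.056), and DESeq2 and limma each called it. Over all genes limma called 8156 in that comparison, against 4810 by edgeR. At HS7 Cldn16 stood at -0.58 ± 0.21 (0.070) and DESeq2 called it. Both Cldn16 values shrank without NOX4 HS7 replicates 3 and 4, to -0.18 (adjusted p = 0.14) averaged and -0.22 (0.64) at HS7. Both were called without SS HS7 replicate 3, at -0.32 (adjusted p = 0.037) and -0.64 (0.036), and without NOX4 HS7 replicate 1 or 5, at -0.36 and -0.37 averaged and -0.77 and -0.79 at HS7. Without SS HS7 replicate 4 the averaged value was called (-0.32, adjusted p = 0.049). At HS21 limma with quality weights called 3 members, but over all genes it called 7461 there, against 258 by edgeR. Its count of members is therefore not particular to these genes. Egf stood at 0.58 ± 0.23 by edgeR at HS21 (0.20), with a call without NOX4 HS7 replicates 3 and 4 (0.58, adjusted p = 0.048). The number of members with an unadjusted p under 0.05 by edgeR was 0 at LS and 1 in each of the other 3 comparisons. Whether the strain difference itself differed between tissues was tested over all 60 libraries: no member was called, 11.0% of all genes were, and Kcnj1 had the lowest adjusted p (-0.38 ± 0.17, 0.14), the 1 member with an unadjusted p under 0.05. DESeq2 called none there and limma 1, Kcnj1, where limma called 4732 of all genes and edgeR 1796.

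NOX4 HS7 replicates 3 and 4 differed from the other 3 libraries of their group in both tissues, in some of the 7 genes far more than in others. The library names of their cortex samples fall outside the running order that all other libraries follow, including their outer medulla samples. The labels do not say why, and the part of this in their levels was not tested. In outer medulla, Casr was at 14.7 and 15.4 CPM against 101 to 150 CPM in the others, which is 11.3% and 11.8% of their mean. Umod was at 2165 and 1883 CPM against 9168 to 11326 CPM (20.8% and 18.1%), Egf at 82.1 and 115 CPM against 202 to 286 CPM, and Cldn16 at 64.0 and 79.8 CPM against 99.6 to 191 CPM. Kcnj1 and Cldn19 were nearer, at 61.2% and 70.3% and at 63.2% and 74.1% of the others' mean. Slc12a1, at 3027 and 3751 CPM, was at 82.2% and 102%. The cotransporter was thus near the level of its group in the same libraries in which the receptor and uromodulin were lowest relative to the others.

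Summed markers of other cells differed in these libraries too. In outer medulla the principal cell sum over 7 genes was 4049 and 4510 CPM against 1617 to 2688 CPM in the other 3, the intercalated cell sum over 7 genes was 1600 and 1838 CPM against 715 to 819 CPM, and the leukocyte sum over 6 genes was 2565 and 3598 CPM against 1648 to 2107 CPM. In cortex Umod was at 1287 and 1133 CPM against 2049 to 2692 CPM, Egf at 105 and 138 CPM against 194 to 226 CPM, and Cldn16 at 21.6 and 22.7 CPM against 30.1 to 44.2 CPM. There Casr was not low, at 81.8 and 56.6 CPM against 61.4 to 69.0 CPM, and Slc12a1, at 430 and 363 CPM, was above the other 3 (303 to 356 CPM). The distal convoluted tubule sum over 5 genes in cortex was 827 and 719 CPM against 1384 to 1760 CPM, and the thin limb sum over 5 genes was 2685 and 2570 CPM against 1466 to 1623 CPM. A thin limb marker, Slc14a2, has 2 rows in the table, which were at 0 in 19 and 21 of 30 cortex libraries. The part of these cell types in the levels of the 7 genes was not tested.

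**Figure D4:**
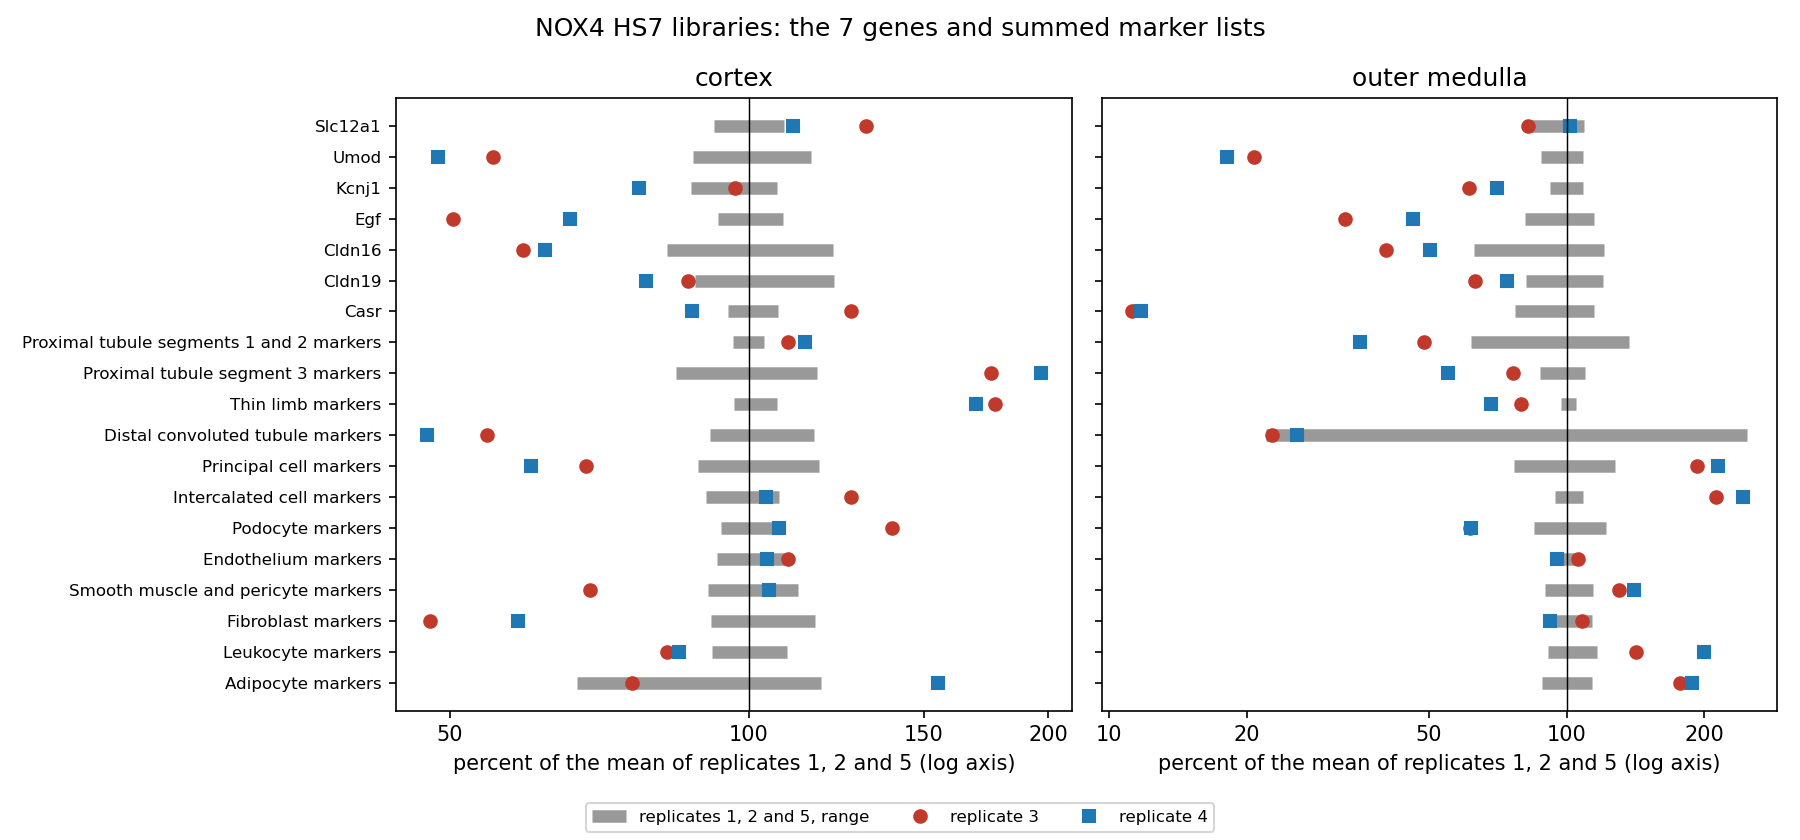
The 7 genes and 12 summed marker lists in NOX4 HS7 replicates 3 (circles) and 4 (squares), as a percent of the mean of replicates 1, 2 and 5 (log axis), whose range is the grey bar. In outer medulla Casr and Umod lie farthest to the left, at 11.3% to 20.8%, with Slc12a1 at 82.2% and 102% and the principal and intercalated cell sums at 192% to 243%.

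To ask whether the members moved together, each was taken as a log2 ratio to Slc12a1 within its library (log2 of CPM + 1), and groups were compared by an exact permutation test over 252 splits of 5 against 5 libraries, 2-sided, whose smallest possible p is 0.00794. Of 84 such tests none passed an adjusted p of 0.05: the smallest adjusted p was 0.0556, 26 had an unadjusted p under 0.05, and in 12 the groups did not overlap. A lone test at the smallest possible p could not pass over 84 tests, however far apart its groups. The lack of a pass therefore does not show that the members moved together. The Cldn19 ratio in SS cortex differed most among those, at -4.69 ± 0.24 at LS and -3.60 ± 0.13 at HS21 (SD, n = 5, exact p = 0.00794, adjusted 0.0556), so each HS21 library held more of this claudin per cotransporter transcript than any LS library. In SS outer medulla the Cldn19 ratio was 0.67 higher and the Cldn16 ratio 0.41 higher at HS21 than at LS, both without overlap. The Kcnj1 ratio in NOX4 cortex exceeded that in SS cortex by 0.81 at LS and by 0.63 at HS21, again without overlap. Tests within a diet share the Slc12a1 value of each library and are not independent of each other.

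Across the 30 libraries of a tissue the members ran together more in outer medulla than in cortex. The 21 pairwise Pearson correlations of log2 CPM had a median of 0.67 in outer medulla (0.37 to 0.96) and of 0.35 in cortex (-0.17 to 0.84), given as descriptions, since libraries of a group share strain, diet and tissue. In outer medulla the closest pairs were Umod with Casr (0.96) and Slc12a1 with Kcnj1 (0.91). Left without NOX4 HS7 replicates 3 and 4 the first was 0.82 and the second 0.91. In cortex Slc12a1 with Kcnj1 gave -0.07, while Umod with Cldn16 gave 0.84 and Slc12a1 with Umod 0.65, or 0.88 without those 2 libraries. Kcnj1 in cortex ran instead with Casr (0.66) and Egf (0.59).

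The genes whose pattern over 30 libraries was most like the mean profile of the members were, in cortex, Tmem207 (Pearson r = 0.83), Reep5 (0.81), Bdh1 (0.78), Myo1d (0.78) and Fam81a (0.77). In outer medulla they were Igf1, Tmem72 and Slc16a7 (each 0.97), P3h2 (0.96) and the basolateral potassium channel gene Kcnj10 (0.96), among 11801 genes with a mean of at least 5 CPM. Without NOX4 HS7 replicates 3 and 4, Tmem207 was still first in cortex (0.89) and Igf1 in outer medulla (0.95), and 3 of the 5 cortex genes and 3 of the 5 outer medulla genes stayed among the first 5.

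Other genes of the limb were taken from a list of 44 by role, of which 42 matched a name and 41 were tested within a tissue. Their values are of bulk tissue and do not tell how much came from cells outside the limb. For HS21 in SS cortex 5 were lower and 1 higher, which is 14.6% of the 41, beside 16.5% of all genes called. Tmem207, a membrane protein gene enriched in the limb, fell by 1.06 on the log2 scale (SE 0.16, edgeR, adjusted p = 7.7e-05). Ptgs2, the gene of cyclooxygenase 2, listed for the macula densa, fell by 2.51 (SE 0.53, adjusted p = 0.0021). The other genes listed for the macula densa were not called by edgeR, with Nos1 at -0.44 (adjusted p = 0.24) and Pappa2 at 0.11 (0.94). Bulk cortex does not tell which cells the Ptgs2 difference arose in. Tmem72 was at -0.54 ± 0.11 and Cab39l, a partner of the kinase that activates the cotransporter, at -0.37 ± 0.11, both called. The prostaglandin E2 receptor gene Ptger3 was the 1 that rose, by 0.48 ± 0.13. The median over the 41 was -0.14. At HS7 2 were called in SS cortex (4.88%, beside 2.25% of all genes), both lower, with Ptgs2 at -2.71 ± 0.55 and Ppp1r1a at -0.57 ± 0.15. Tmem207 was also the 1 listed gene with a called interaction at HS21 in cortex (0.97 ± 0.22, adjusted p = 0.031), where 1.08% of all genes were called, its salt difference being less negative in NOX4 than in SS.

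In SS outer medulla 8 of the 41 (19.5%, beside 9.86% of all genes) were called at HS21, all lower, with a median over the 41 of -0.38. By smallest p they were led by the basolateral potassium channel subunit Kcnj16 (-0.69 ± 0.14, edgeR, adjusted p = 0.0032), the sodium-hydrogen exchanger Slc9a3 (-1.12 ± 0.27, 0.0097), the nuclear receptor Esrrg (-0.98 ± 0.24, 0.010) and Tmem207 (-1.10 ± 0.27, 0.010). At HS7 1 was called, Ppp1r1a (-0.77 ± 0.19), beside 2.37% of all genes. None of the 41 was called for salt in NOX4 rats in either tissue, where no gene at all was.

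Between strains in cortex the listed genes stood mainly higher in NOX4, with 9 higher and 3 lower at LS, 11 higher and 0 lower at HS7, and 2 higher and 0 lower at HS21. These are 29.3%, 26.8% and 4.88% of the 41, beside 22.0%, 17.4% and 1.00% of all genes. Averaged over diets 21 were higher and 2 lower of 41 (56.1%), beside 31.7% of all genes called. Bsnd, the gene of barttin (0.67 ± 0.09, edgeR, adjusted p = 2.4e-06), was among them, with the parathyroid hormone receptor Pth1r (0.49 ± 0.06, 2.2e-06) and adenylyl cyclase Adcy6 (0.30 ± 0.05, 2.4e-05). Cldn3 (-1.20 ± 0.21) and the bicarbonate cotransporter Slc4a7 (-0.80 ± 0.30) were lower. Bsnd is also a gene of the distal convoluted tubule and intercalated cells, whose marker sums differed between strains. In LS cortex the distal convoluted tubule sum was 623 to 1003 CPM in SS and 1329 to 1723 CPM in NOX4, and the intercalated cell sum was 472 to 677 CPM in SS and 760 to 1001 CPM in NOX4, neither overlapping. Of the 5 markers of the first list Pvalb was at 0 in 29 of 30 cortex libraries. Their part in these differences, and in that of Kcnj1, was not tested.

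In outer medulla the listed genes called between strains numbered 6 at LS (5 higher in NOX4), 2 at HS7 and 1 at HS21, which is 14.6%, 4.88% and 2.44% of the 41 beside 14.8%, 9.61% and 1.63% of all genes. Averaged over diets 8 were higher and 0 lower, 19.5% beside 30.4% of all genes, so the listed genes were called no more often than genes at large there. Of the 8, Cldn3 (0.59 ± 0.11), the glucagon receptor Gcgr (0.71 ± 0.14) and Hpn, the protease that releases uromodulin (0.89 ± 0.17), had the smallest p-values. Cldn3 differed in sign between the tissues, and the test of that difference gave 1.81 ± 0.25 (edgeR over 60 libraries, adjusted p = 2.2e-06). Of 42 listed genes tested between tissues, 23 were higher in outer medulla and 13 higher in cortex (85.7%, beside 71.6% of all genes), with Tmem207 at 2.52 and Pappa2, a macula densa gene, at -3.45 on the log2 scale.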

How the data were processed

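Poly(A) RNA of snap-frozen kidney cortex and outer medulla was sequenced, per the labels' protocols. Per the submitters' processing notes, the authors used HISAT2 2.0.5, StringTie 1.3.3b and featureCounts 1.5.0-p3; the genome build is not given in the sources used here. Per the file headers, the deposited table holds each gene's raw read count and FPKM in every library and, for the authors' own comparisons, a log2 fold change and an adjusted p-value, whose tool is not given in the sources used here.

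Counts were tested in R 4.3.3 with edgeR 4.0.16 (filterByExpr by group, TMM scaling, quasi-likelihood F test, 1 coefficient per group; 30 libraries in fits within a tissue, 60 in those between tissues). P-values were adjusted by Benjamini-Hochberg within a comparison over all genes tested, with calls under 0.05, and SE is the size of the log2 fold change over the square root of F. CPM is scaled by TMM within a tissue. Counts without molecular identifiers also hold amplified copies. The 7 genes, the list of 44 further genes, the markers and the tests were chosen with earlier results of these data known. Named beside the 7 are Nox4, up to 4 called listed genes a comparison and direction by smallest p, and the 5 genes of most similar pattern; Pappa2 was named outside that rule, after its values were seen, and some listed genes are not reported here. On simulated counts for NOX4 against SS at LS the test called 49.3%, 70.1% and 98.5% of genes changed 1.5-fold, 2-fold and 4-fold in cortex (15238 genes), and 22.4%, 46.3% and 92.4% in outer medulla (15964 genes). Alternatives were DESeq2 1.42.0, limma 3.58.1 (voom with quality weights), other scalings and filters, marker scores as covariates, a replicate block, fits of the compared groups alone, and leaving out libraries; leaving out NOX4 HS7 replicates 3 and 4 was added after seeing the data.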

Additional observations from a re-analysis of the deposited data

Results flagged for a closer look

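Of 156 sets of 5 libraries (7 genes, and 6 ratios to Slc12a1, in 12 groups), 13 had a library far from the other 4, with a gap to the nearest of more than 0.71 of the range. Chance flags about 1 in 20 such sets. NOX4 LS cortex replicate 1 was high for Slc12a1 (504 CPM) and Umod (2986 CPM), and low for the log2 ratio of Casr to Slc12a1 (-2.79). NOX4 LS cortex replicate 3 (219 CPM) and SS HS21 cortex replicate 5 (154 CPM) were high for Kcnj1. SS HS7 cortex replicate 2 was high for Cldn16 (61.7 CPM), and SS HS7 cortex replicate 1 (38.6 CPM) and NOX4 HS7 cortex replicate 1 (25.7 CPM) were high for Cldn19. SS LS cortex replicate 1 (83.8 CPM) and NOX4 LS outer medulla replicate 5 (203 CPM) were high for Casr, and SS LS outer medulla replicate 2 was high for Egf (438 CPM). In SS HS7 outer medulla, replicate 1 was apart in the log2 ratio of Kcnj1 to Slc12a1 (-2.39), and replicate 3, the library with high proximal tubule markers, in that of Cldn16 (-3.38). The pair of low NOX4 HS7 libraries is not among these, because 2 low values of 5 leave no wide gap at the end of the range.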

How the results depend on the processing

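Scaling and filters changed few counts of the 7 genes: DESeq2 size factors moved 1 count (outer medulla strain averaged, 0 to 1), and omitting the filter lost the call of Egf at HS21 in SS cortex (4 to 3 members). With the DESeq2 Wald test the counts became 2 for cortex strain HS21 (from 1), 1 for SS cortex HS7 (from 0), 5 for SS cortex HS21 (from 4), 1 each for outer medulla strain HS7 and averaged (from 0) and 3 for SS outer medulla HS21 (from 1). With limma voom they became 1 for cortex strain HS7 (from 2), 3 for cortex strain HS21, 5 for cortex strain averaged (from 3), 5 for SS cortex HS21 (from 4), 2 for the cortex HS21 interaction (from 0), 3 for outer medulla strain HS21 and 1 for strain averaged (from 0), 5 for SS outer medulla HS21 and 1 for tissue by strain (from 0). Fitted to the compared groups alone they became 0 for cortex strain HS7, 3 each for cortex strain LS and HS21, 6 for SS cortex HS21, 2 for the cortex HS21 interaction, 1 for outer medulla strain HS21 and 4 for SS outer medulla HS21. The authors' deposited table lists 3 each for cortex strain LS and HS21, 6 for SS cortex HS21, 1 and 2 for outer medulla strain LS and HS21, and 5 for SS outer medulla HS21. Over all genes limma called 7461 for outer medulla strain HS21 (edgeR 258) and 8156 for strain averaged (edgeR 4810). For the cortex HS21 interaction limma called 993 (edgeR 164), and for tissue by strain 4732 (edgeR 1796).

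Without low-complexity libraries the counts became 0 for cortex strain LS, 2 for cortex strain averaged (Slc12a1 lost), 1 for SS cortex HS21, 2 for SS outer medulla HS21 and 1 for tissue by strain. Without NOX4 HS7 replicates 3 and 4 they became 1 for cortex strain HS7, 2 for cortex strain HS21, 3 for cortex strain LS, 4 for cortex strain averaged, 5 for SS cortex HS21, 1 each for outer medulla strain HS21 and SS outer medulla HS7, and 3 for SS outer medulla HS21. The segment 3 score left 0 for cortex strain LS and 1 for strain averaged, where Slc12a1 turned to 0.10. Over all genes it left 157 and 1446 called in these 2 comparisons. The score of segments 1 and 2 left 0, 1 and 1 for cortex strain LS, HS7 and averaged, gave 5 for SS cortex HS21 (Cldn19 called higher) and 2 for SS outer medulla HS21, and turned Umod (0.070) and Cldn19 (0.092), neither called, for cortex strain averaged. Against the mean of the other 6 members, the Umod ratio turned negative for cortex strain LS (-0.26), SS cortex HS7 (-0.047) and SS cortex HS21 (-0.014). The causes were not tested.

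Leaving out 1 library at a time gave 1 to 3 members for cortex strain LS, 1 to 2 for strain HS7 and for strain HS21, 3 to 5 for strain averaged, 0 to 2 for SS cortex HS7, 3 to 5 for SS cortex HS21 and 0 to 1 for the cortex HS21 interaction. In outer medulla it gave 0 to 1 for strain averaged, SS HS7 and NOX4 HS7, and 0 to 2 for strain HS7. Without SS HS21 cortex replicate 5, 5 ratio tests of that group reached an adjusted p of 0.0476. Over all genes, the alternatives moved the count called from 2499 to between 930 and 3207 for SS cortex HS21, from 3342 to between 157 and 3814 for cortex strain LS, from 152 to between 51 and 2161 for cortex strain HS21, and from 1557 to between 1200 and 3666 for SS outer medulla HS21.

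Replicate numbers recur in every group, and the labels do not say whether a number marks the same rat in both tissues. Of correlations between libraries of the same number, 4 of 30 between the tissues were over 0.1. So were 12 of 75 between cortex groups and 21 of 75 between outer medulla groups, and 6 of 30 libraries ran best with their own number. Weak correlations cannot exclude a pairing, so it remains unknown, and the main fits took all libraries as unpaired. A replicate block gave 1 each for outer medulla strain HS7 and averaged, and 3 for SS outer medulla HS21 and for SS cortex HS21 (from 4). At this depth the precision is set by the spread of 5 libraries rather than by counting.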
